A study of Rattus norvegicus with 6 samples.

Results

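The Toll-like receptors and the core of the NF-kB pathway were described in primary rat ovarian granulosa cells through 10 genes: the receptors Tlr2, Tlr3 and Tlr4, the co-receptor Cd14, the adaptor Myd88, the NF-kB subunit genes Rela, Relb, Nfkb1 and Nfkb2, and the inhibitor gene Nfkbia. They were chosen by symbol, and each was found on 1 row of the 17525 genes measured. The cells came from Sprague-Dawley (SD) rats, 21 days old, that had received 60 IU of PMSG, a gonadotropin that stimulates follicle growth, 48 h before the ovaries were taken. They were dispersed with enzyme, passed through a sieve and cultured in medium with serum. The values below belong to 3 libraries of the group titled ATR, called ATR 1, ATR 2 and ATR 3. The 3 libraries titled Control are not analysed here, and the levels below therefore show no effect of any treatment. The series' title names long-term atrazine exposure, but no label spells out ATR, and the sources used here give neither the dose nor its length, nor do they say whether animals or cultures were exposed. Whether each library stands for its own animal or culture is not stated, and p-values between libraries then measure a spread that may be technical.

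Toll-like receptors recognise microbial molecules. At the cell surface Tlr4 binds lipopolysaccharide (LPS) with the help of Cd14 and Ly96, Tlr2 pairs with Tlr1 or Tlr6 to bind lipopeptides, and Tlr5 binds flagellin, whereas Tlr3 binds double-stranded RNA inside endosomes. Most of them signal through Myd88, and Tlr3 signals through Ticam1. Both routes free dimers of Rel proteins from their IkB inhibitors, and the dimers then switch on cytokine genes and also the genes of their own inhibitors. In the ovary these receptors are known from granulosa and cumulus cells as well as from macrophages.

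The libraries held 18677212 to 19170552 reads assigned to genes. Of 9 granulosa markers, 7 reached a mean of 1 TPM (a read level scaled for transcript length and library size), with a median of 6.55 TPM, led by Gja1, Inha and Inhba, while Cyp19a1 had 1, 1 and 2.33 estimated reads and Amh 0, 2 and 1. Surface epithelium and mesothelium markers reached it in 7 of 10 cases, with a median of 46.6 TPM, led by Upk3b, Krt8 and Lrrn4. In ATR 1, ATR 2 and ATR 3, Krt19 had 3, 1 and 1 reads and Epcam 3, 4 and 6, and Muc16 had a mean of 0.167 TPM. Stromal fibroblast markers reached 1 TPM in 7 of 7 cases, with a median of 29.4 TPM, led by Col14a1, Ogn and Thy1. Leukocyte markers reached it in 10 of 14 cases with a median of 2.70 TPM. Of 5 endothelial markers 1 did (Kdr, ahead of Tek and Vwf), and the defining genes Pecam1 and Cdh5 had at most 3 and 1 reads in a library. The label of granulosa cells is thus met by part of its markers, beside part of the surface epithelium and mesothelium markers and the stromal fibroblast markers. In bulk RNA, fewer cells of a type and less RNA per cell cannot be told apart.

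Tlr3 was the most abundant of the receptors among the 10 genes. Its TPM came to 18.5 for ATR 1, 15.4 for ATR 2 and 15.2 for ATR 3, with a mean of 16.3 ± 1.85 (SD, n = 3); values without library names below keep this order. The lipopeptide receptor Tlr2 stood at 4.72, 3.96 and 3.79 TPM, or 4.16 ± 0.495 TPM. The LPS receptor Tlr4 was the lowest of the 10, at 2.11, 2.36 and 2.25 TPM, or 2.24 ± 0.125 TPM. The ranges of the 3 receptors over the libraries did not overlap. Within a library the TPM of Tlr3 exceeded that of Tlr4 by 8.75, 6.51 and 6.75 times, and that of Tlr2 by 3.91, 3.88 and 4.01 times. The Tlr3 to Tlr2 ratio varied less in these libraries. Counting alone gives a relative SD of 9.95% for Tlr2 and 12.2% for Tlr4, and a difference in steadiness was not tested.

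Tlr5, which is outside the 10 genes, was the most abundant Toll-like receptor of all those measured. It stood at 141, 119 and 122 TPM, or 127 ± 11.9 TPM, from 5344, 4495 and 4763 reads, all whole numbers. It made up 81.25% ± 0.349 of the summed TPM of the 12 receptors measured, against 10.4% ± 0.282 for Tlr3, 2.65% ± 0.110 for Tlr2 and 1.44% ± 0.1996 for Tlr4. Tlr6, a partner of Tlr2, followed at 4.94 ± 0.260 TPM. These 5 receptors reached 1 TPM and the other 7 (Tlr1, Tlr7, Tlr8, Tlr9, Tlr10, Tlr12 and Tlr13) did not. Tlr1, Tlr6 and Tlr10 are similar in sequence and their counts are not whole numbers, so their single levels are uncertain. Tlr9, the receptor of bacterial DNA, had 0, 0 and 1 reads. The 0 in ATR 1 and ATR 2 limits its level only to about 3 reads in a library, which is counting error alone.

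**Figure D1:**
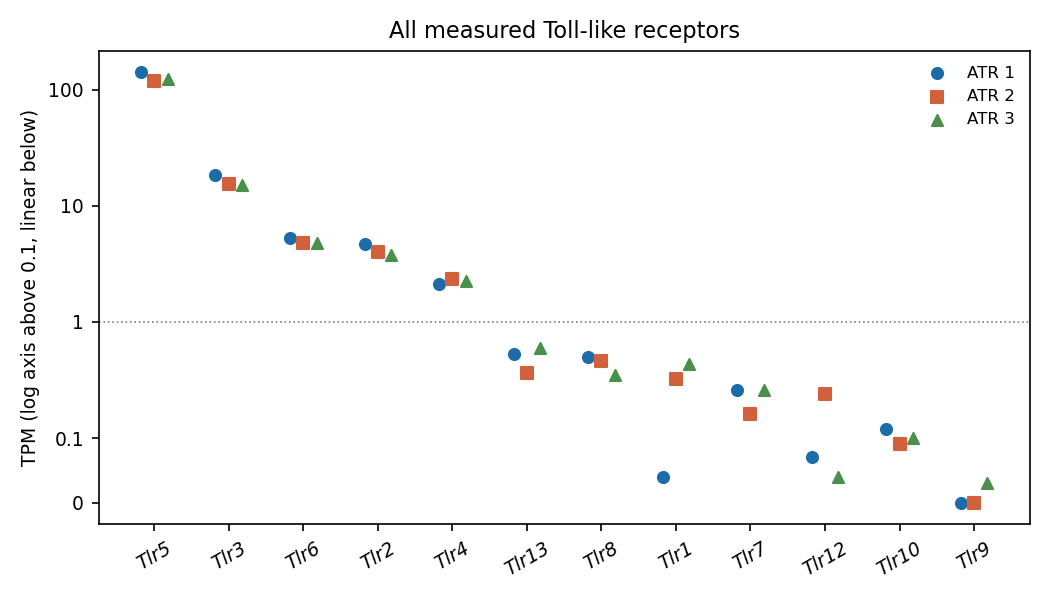
TPM of the 12 measured Toll-like receptors (log axis above 0.1 TPM, linear below it), 1 point per ATR library; the dotted line marks 1 TPM. Tlr5 lies near 127 TPM, Tlr3 near 16.3 TPM, and 7 receptors lie below 1 TPM.

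The partners of the LPS receptor were more abundant than the receptor. Cd14, which hands LPS to Tlr4 and also serves Tlr2, stood at 18.05, 21.9 and 18.6 TPM, or 19.5 ± 2.08 TPM, and was highest in ATR 2. Its TPM exceeded that of Tlr4 by 8.55, 9.28 and 8.27 times. Its counts (259, 305 and 267 estimated reads) are not whole numbers, so part of its reads can be shared with another gene. Ly96, the LPS-binding partner also called MD-2, stood at 28.3 ± 1.88 TPM and exceeded Tlr4 by 13.8, 12.5 and 11.6 times. Lbp, the serum protein that delivers LPS to Cd14, had 1, 3 and 3 reads. Of the 8 genes on the list of co-factors and receptor trafficking, 5 reached 1 TPM. The chaperones that fold the receptors led it, with Hsp90b1 at 1198 ± 122 TPM and Cnpy3 at 96.7 ± 1.32 TPM. Unc93b1, which carries Tlr3 and other receptors to endosomes, stood at 12.97 ± 0.337 TPM.

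Cd14 is also a marker of monocytes and macrophages. The pan-leukocyte gene Ptprc stood at 0.850 ± 0.147 TPM, from 37, 29 and 42 reads. Lyz2 was the highest leukocyte marker at 74.0 ± 12.1 TPM, ahead of Cd68 at 12.7 ± 1.91 and Tyrobp at 8.83 ± 0.305 TPM. Cd163, a marker of tissue macrophages, had 0, 0 and 1 reads, and the B cell gene Cd79b had 1, 0 and 0. The summed TPM of the 14 leukocyte markers measured was 107, 128 and 133 in ATR 1, ATR 2 and ATR 3. That sum was highest in ATR 3, and Cd14 in ATR 2. Lyz2 was the largest part of the sum, at 60.2, 78.6 and 83.2 TPM. Cd68 was highest in ATR 2, at 12.25, 14.75 and 11.0 TPM. The Cd14 to Ptprc ratio was 20.5, 31.7 and 18.98, and the Cd14 to Lyz2 ratio 0.300, 0.279 and 0.224. For Cd14 to Cd68 it was 1.47, 1.48 and 1.69. Of 12 leukocyte markers tested for spread as described below, 8 were highest in ATR 3, 3 in ATR 2 and 1 in ATR 1. Over all tested genes these shares were 32.0%, 34.1% and 33.9%. Several of the markers rest on few reads, such as Aif1 with 12, 9 and 19 and Tyrobp with 38, 38 and 41, so their highest library is uncertain. The test called 2 of the 12, against 23.2% of all genes tested. These were Lyz2 and Laptm5, both highest in ATR 3, and Laptm5 stood at 3.87, 5.52 and 6.20 TPM. The part of leukocytes in the Cd14 level was not tested.

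Myd88, the adaptor that links most of the receptors to their kinases, stood at 24.1, 25.04 and 21.5 TPM, or 23.5 ± 1.86 TPM. ATR 3 was the lowest library. Myd88 exceeded Ticam1, the adaptor of Tlr3, by 1.64, 1.70 and 1.63 times. Their ratio varied less than either level in these libraries, a difference that was not tested. The counts of Ticam1 are not whole numbers, so part of its reads can be shared with another gene. Tirap, which brings Myd88 to Tlr2 and Tlr4, was lower at 7.46 ± 1.32 TPM, and Ticam2, which brings Ticam1 to Tlr4, was at 0.310 ± 0.171 TPM from 14, 4 and 10 reads. Of the 20 adaptors and proximal kinases, 19 reached 1 TPM, and their median was 14.5 TPM. They were led by Ube2v1 (335 ± 9.80 TPM) and Ube2n (167 ± 6.41 TPM), which together build the ubiquitin chains of this pathway, and by the kinase Irak1 (96.9 ± 5.99 TPM).

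Rela, which encodes the main activating subunit of NF-kB, was the most abundant of the 10 genes. It stood at 56.8, 56.1 and 52.0 TPM, or 55.0 ± 2.58 TPM, higher than 81.2% of all genes. Nfkb1, whose precursor yields the usual partner of Rela, stood at 26.05, 25.8 and 26.3 TPM. Its SD of 0.225 TPM was 0.864% of the mean, the smallest relative SD in TPM among the 10 genes. Nfkb2, the precursor gene of the non-canonical arm, stood at 18.5, 20.3 and 19.1 TPM, or 19.3 ± 0.887 TPM. Relb, its partner in that arm, was far lower at 4.15, 5.60 and 4.23 TPM, or 4.66 ± 0.815 TPM. The fifth subunit gene, Rel, which is prominent in lymphoid cells, stood at 1.86 ± 0.326 TPM.

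The subunit genes therefore made up unequal shares of their summed TPM: 51.4% ± 1.33 for Rela, 24.4% ± 0.995 for Nfkb1, 18.1% ± 0.698 for Nfkb2, 4.35% ± 0.651 for Relb and 1.74% ± 0.252 for Rel. Rela exceeded Nfkb1 by 2.18, 2.17 and 1.98 times within a library, and Nfkb2 exceeded Relb by 4.47, 3.62 and 4.52 times. RNA levels do not give the amounts of the processed proteins.

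Nfkbia encodes IkB-alpha, the inhibitor that holds Rela dimers in the cytoplasm and that NF-kB itself induces. It stood at 17.2, 17.6 and 16.8 TPM, or 17.2 ± 0.396 TPM, with 237, 243 and 237 reads. Of the 3 classical inhibitor genes it made up 49.3% ± 1.88 of the summed TPM, ahead of Nfkbib at 31.0% ± 1.23 and Nfkbie at 19.7% ± 1.22. Rela exceeded Nfkbia by 3.30, 3.19 and 3.10 times. The deubiquitinase gene Tnfaip3, another inhibitor that NF-kB induces, stood at 0.318, 0.430 and 0.391 of the TPM of Nfkbia.

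**Figure D2:**
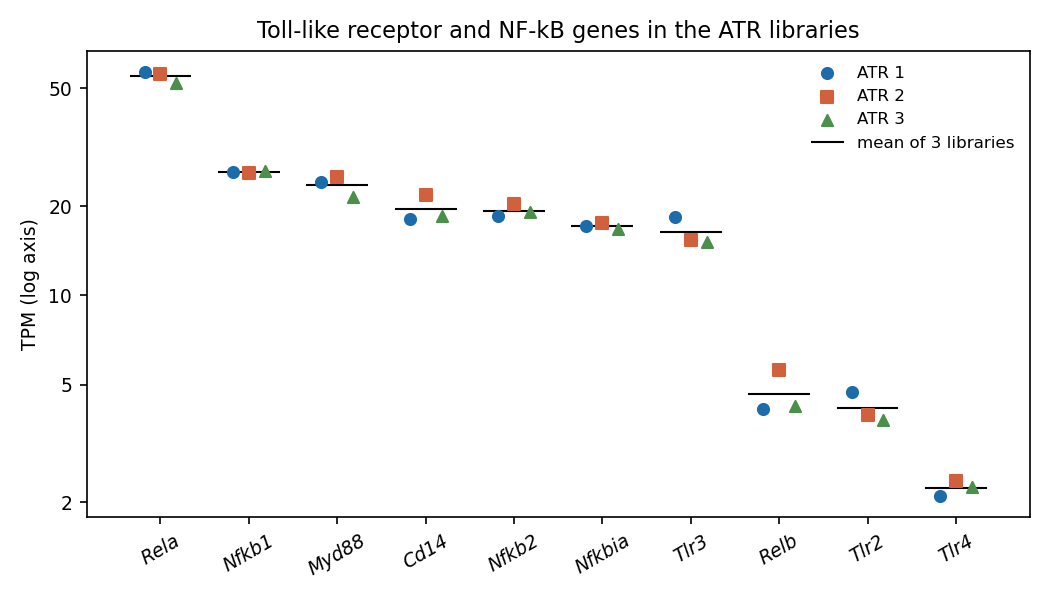
TPM (log axis) of the 10 genes in each ATR library, ordered by mean; black lines mark the means over 3 libraries. Rela stands apart at 55.0 TPM, 6 genes lie between 16.3 and 26.05 TPM, and Relb, Tlr2 and Tlr4 lie below 5 TPM.

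In order of mean TPM the 10 genes were Rela, Nfkb1, Myd88, Cd14, Nfkb2, Nfkbia, Tlr3, Relb, Tlr2 and Tlr4. All 10 reached 1 TPM, as 71.4% of all genes did, and 7 reached 10 TPM, against 50.2% of all genes. None reached 100 TPM, a level reached by 10.7% of all genes. Their median of 18.2 TPM compares with 10.1 TPM over all genes. Of the 9 neighbouring pairs in this order, 5 had libraries that did not overlap. The steps from Rela to Nfkb1, by 2.11 times in the means, and from Tlr3 to Relb, by 3.51 times, were the widest. Myd88 and Cd14, Cd14 and Nfkb2, Nfkbia and Tlr3, and Relb and Tlr2 overlapped and cannot be ranked beyond their spread.

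The promoters of these genes were read for 2 sequence motifs, because several genes of the pathway are textbook targets of NF-kB or of interferon. RefSeq promoters of the assembly GRCr8, from 250 bases before the gene's start to 50 after it, were found for 9 of the 10 genes, all but Relb. The kB-like motif searched was GGG, then any 2 bases, then TTTCC. The motif like an interferon-stimulated response element (ISRE) was GAAA, then any 2 bases, then GAAA. Both were searched on either strand. The kB-like motif was present in 3 of the 9, against 1.51% of all 27457 promoters, and the ISRE-like motif in 1, against 3.77%. None of these promoters held both motifs. The stretches that hold a match are shown on the gene's strand from 5′ to 3′, with the motif in capitals, since they are where the inhibitor, both precursor genes and the adaptor carry the letters of the motifs. In Nfkbia the motif lies on the opposite strand.
Nfkbia (chr6:78597074-78597123, minus strand): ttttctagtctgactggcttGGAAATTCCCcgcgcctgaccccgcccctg
Nfkb1 (chr2:226805430-226805479, minus strand): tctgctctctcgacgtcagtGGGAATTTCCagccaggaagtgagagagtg
Nfkb2 (chr1:255108334-255108383, plus strand): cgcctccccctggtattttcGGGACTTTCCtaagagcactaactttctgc
Myd88 (chr8:127956217-127956266, minus strand): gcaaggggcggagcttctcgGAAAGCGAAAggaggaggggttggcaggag
The kB-like match began at position -31 in Nfkbia, -20 in Nfkb2 and 4 in Nfkb1, and the ISRE-like match at -16 in Myd88, where 1 is the first base of the gene. These matches are descriptions of letters and not of binding. No match was found in the windows of Tlr2, Tlr3, Tlr4, Cd14 and Rela.

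The libraries differed little in these genes: the highest library exceeded the lowest by at most 1.36 times in CPM (reads scaled to a common library size), in Relb. A chi-square test of each gene's read counts against the library sizes, adjusted over all genes by the Benjamini-Hochberg method, asked whether the libraries differed beyond counting noise. It called 1 of the 10 genes, Tlr3, against 23.2% of all 13309 genes tested and 17.1% of the 7632 genes with 203 to 3621 reads in all, the range of these 10. At an unadjusted p under 0.05 it found 2, Tlr3 and Relb. The test compares libraries and not conditions, and it counts duplicated reads as independent.

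Tlr3 was highest in ATR 1, with 618 reads against 524 in ATR 2 and 519 in ATR 3. Scaled for library size, its reads in ATR 1 were 1.18 times those of ATR 2 and ATR 3 pooled (exact 95% interval 1.06 to 1.30, counting error only). Its adjusted p in the chi-square test was 0.0293. Here and below, the library set against the others was picked after its value was seen. Such a ratio leans away from 1, and its interval does not hold the stated 95%. The call was lost without ATR 1 (adjusted p = 0.870) and without ATR 3 (adjusted p = 0.0656), and kept without ATR 2 (adjusted p = 0.0280). Tlr5 had its highest value in ATR 1 too, with a ratio of highest to lowest library of 1.17 and an adjusted p of 1.3e-13, which became 0.189 without ATR 1. Of the 2690 genes that passed the test and averaged 5 CPM or more, the 2 whose pattern over the 3 libraries lay nearest to that of Tlr3 were Sh3tc1 and Phtf2. Their Euclidean distances were 0.0045 and 0.0057 on the log2 scale. Such likeness rests on 3 values per gene.

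The non-canonical subunit Relb had the largest spread, a coefficient of variation of 17.1% in CPM where counting alone gives 9.85%. It was highest in ATR 2, with 122 reads against 91 and 96, a read ratio of 1.33 (1.05 to 1.67), but its adjusted p was 0.149. Cd14 was also highest in ATR 2, with a ratio of 1.18 (1.02 to 1.36). Its p in the chi-square test was 0.0697 unadjusted and 0.192 adjusted. Tlr2 was highest in ATR 1, with 116 reads against 93 and 94, a ratio of 1.23 (0.967 to 1.56). For Relb, Cd14 and Tlr2 a difference between libraries beyond counting noise was therefore not shown at this depth. For Tlr4, with 63, 71 and 69 reads, the ratio of ATR 1 to the others was 0.892 with an interval of 0.652 to 1.21, so differences smaller than about these bounds were not detectable.

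Nfkb1, Nfkbia and Tlr4 had coefficients of variation of 1.81%, 2.38% and 6.85% where counting gives 3.27%, 6.47% and 12.2%. Over 3 libraries counting alone often gives a value below its own SD, and a special evenness of these genes was not tested. For Nfkbia the read ratio of ATR 2, its highest library, to the others was 1.04 (0.889 to 1.22). The median coefficient of variation of the 10 genes was 7.04%, and that of the 7632 genes in the same range of reads was 6.27%, with 4 of the 10 below it.

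**Figure D3:**
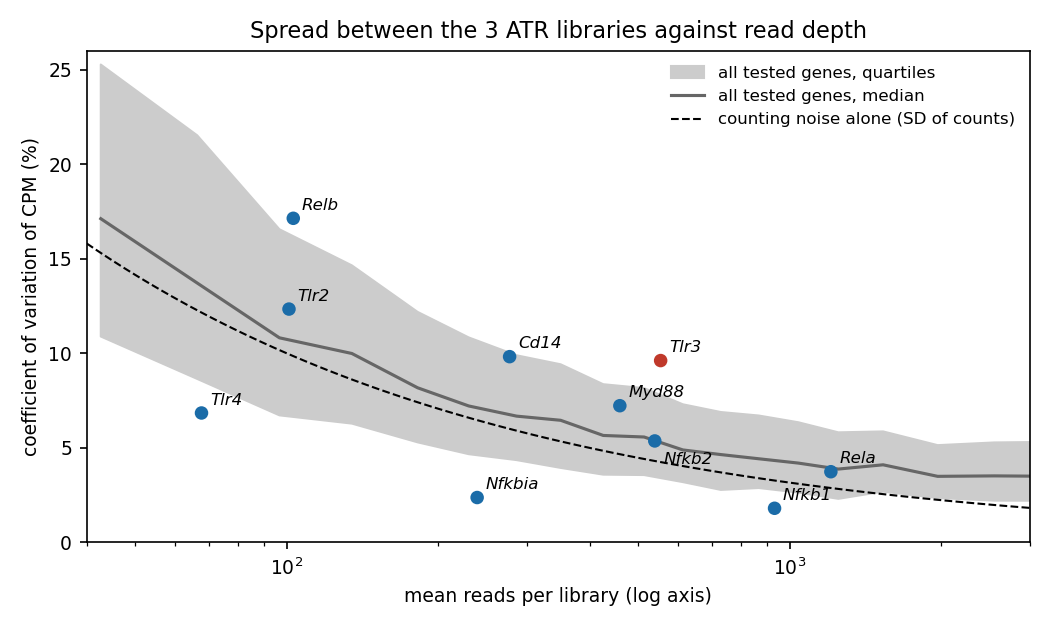
Coefficient of variation of CPM over the 3 ATR libraries (%) against mean reads per library (log axis) for the 10 genes (points, red where the test called the gene), with the median and quartiles of all tested genes in grey and the SD of pure counting as a dashed line. Tlr3 at 9.62% is the only red point, and Nfkb1, Nfkbia and Tlr4 lie below the dashed line.

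In CPM, 7 of the 10 genes had their highest value in ATR 2, where 34.1% of all tested genes did, and 6 did so in TPM, where Rela was highest in ATR 1. The margins were small: the median deviation from the gene mean on the log2(CPM + 0.5) scale was -0.02 for ATR 1, 0.06 for ATR 2 and -0.06 for ATR 3. Of the others, Tlr2 and Tlr3 were highest in ATR 1, as were 33.9% of all tested genes, and Nfkb1 was highest in ATR 3, as were 32.0%. None of the 7 genes highest in ATR 2 passed the test.

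**Figure D4:**
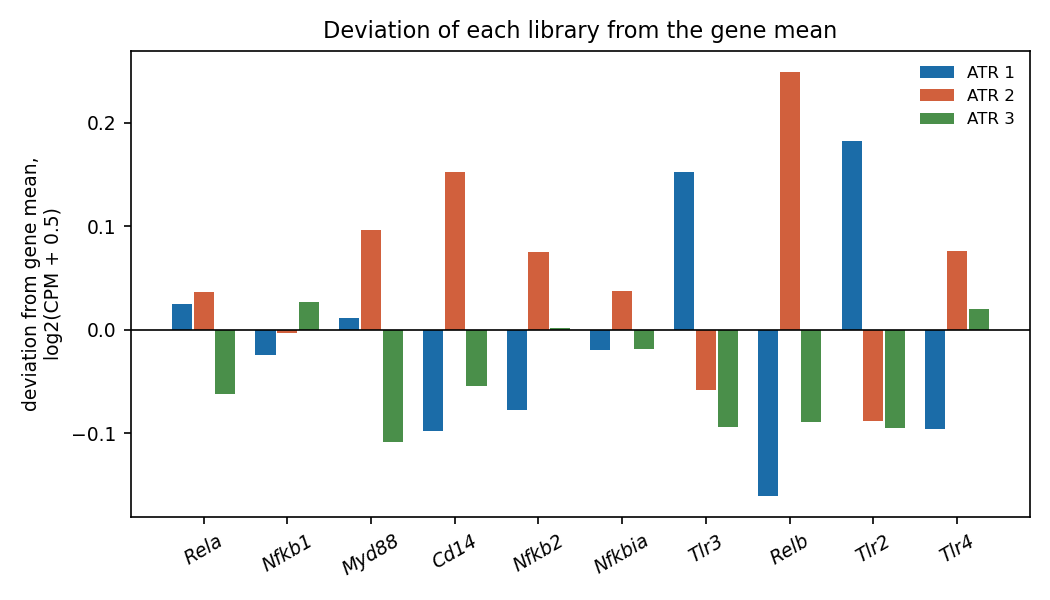
Deviation of each ATR library from the gene mean on the log2(CPM + 0.5) scale (bars, 1 per library) for the 10 genes in order of mean TPM. Relb in ATR 2 deviates most, by 0.25, and the bars of Nfkb1 and Nfkbia stay within 0.04 of 0.

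Between receptors and subunits stand kinases, ubiquitin enzymes and regulators. The counts of genes that passed the test in these lists are to be read against the 23.2% of all genes tested. All 7 genes of the IKK complex and the non-canonical arm reached 1 TPM, and their median was 20.3 TPM. The IKK subunits Chuk, Ikbkg and Ikbkb stood at 36.1 ± 1.89, 20.7 ± 1.70 and 18.4 ± 0.168 TPM, and Map3k14, the kinase that starts the non-canonical arm, at 2.40 ± 0.112 TPM. In this list 1 of 7 genes passed the test, the ubiquitin ligase Birc2, highest in ATR 1. Among the adaptors and proximal kinases 4 of 19 tested genes passed, 2 highest in ATR 1 (Irak1 and Map3k7) and 2 in ATR 2 (Tirap and Irak3). Irak3, a kinase-dead brake on Myd88 signalling, stood at 1.5, 2.76 and 2.1 TPM, with an adjusted p of 0.0379. It was the only one of these 4 whose highest library exceeded its lowest by 1.5 times or more.

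Of 9 further NF-kB and IkB family genes and regulators, 7 reached 1 TPM, led by Commd1 (42.5 ± 0.869 TPM) and Nkiras2 (36.7 ± 3.19 TPM), both inhibitors of the pathway. In this list 1 of 8 tested genes passed, Nfkbiz, an inducible nuclear IkB protein, which had 222, 282 and 281 reads and was lowest in ATR 1. Of 11 negative regulators 9 reached 1 TPM, led by Cyld (109 ± 11.6 TPM), Tnip1 (65.2 ± 1.24 TPM) and Tollip (64.2 ± 1.79 TPM). Of 10 tested there, 3 passed. Cyld and Trim30 were highest in ATR 1 and Tnfaip3 in ATR 2. Trim30 stood at 2.93, 1.59 and 1.62 TPM and Tnfaip3 at 5.48, 7.55 and 6.56 TPM.

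Of 19 genes that NF-kB is known to switch on, 11 reached 1 TPM and had enough reads for the test, and the other 8, among them Il6, Tnf, Il1b and Nos2, had fewer than 30 reads in all. Of the 11, 9 passed the test, against 23.2% of all genes tested. Of these 9, 8 were highest in ATR 2, against 7.42% of all tested genes that passed and were highest there. A share at like read depth was not worked out for this list. Small differences pass in deeply read genes, such as Csf1 with a highest to lowest ratio of 1.28. In 6 of the 9 the lowest library was ATR 1. The 9 called genes became 4 without ATR 1 and 5 without ATR 2. The list was drawn up with earlier results of these libraries known, so it is not independent evidence of a direction.

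The chemokine genes Ccl2 and Ccl7 varied most. Ccl2 stood at 27.3, 52.8 and 19.8 TPM and Ccl7 at 33.0, 47.3 and 15.1 TPM, both highest in ATR 2. The neutrophil chemokine gene Cxcl1 stood at 7.23, 12.6 and 12.0 TPM and was low in ATR 1. The macrophage growth factor gene Csf1 stood at 119, 148 and 129 TPM, the adhesion molecule gene Icam1 at 51.8, 63.6 and 51.9 TPM, and the cyclooxygenase gene Ptgs2 at 9.73, 13.8 and 10.8 TPM. Cxcl10, which interferon also induces, went the other way, at 18.4, 10.0 and 9.79 TPM. Sod2, the mitochondrial superoxide dismutase, was level at 73.05, 73.3 and 71.5 TPM, with an adjusted p of 0.878.

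The kB-like motif was found in the promoters of 5 of the 13 genes of this list with a promoter in the table, and of 3 of the 9 further family genes. Tnfaip3, Nfkbiz and Cxcl1, which passed the test and were lowest in ATR 1, are shown. Nfkb1, Nfkb2 and Nfkbia hold the same motif and did not pass the chi-square test. Neither did the further family genes with a match, Rel (adjusted p = 0.431) and Nkiras2 (adjusted p = 0.0832). The genes shown were picked after their values were seen, so they make no contrast with those that did not pass.
Tnfaip3 (chr1:15544005-15544054, minus strand): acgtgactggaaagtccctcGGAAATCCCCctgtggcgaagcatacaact
Nfkbiz (chr11:58251688-58251737, plus strand): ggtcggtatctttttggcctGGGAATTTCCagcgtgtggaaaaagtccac
Cxcl1 (chr14:17479376-17479425, minus strand): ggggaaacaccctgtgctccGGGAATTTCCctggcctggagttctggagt
The motif is in capitals, and Tnfaip3 and Cxcl1 each hold another match, which is in lower case here. Among the targets with a match, Cxcl1 and Tnfaip3 passed, and Il6, Ccl20 and Cxcl2 had too few reads for the test. With no kB-like match in their windows, Icam1, Ccl7, Ptgs2 and Cxcl10 passed and Sod2 did not. Whether the motif goes with spread between libraries was not tested. A search for 1 strict pattern cannot show that a window lacks a binding site.

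Markers of other cells differed between the same libraries. Of 7 stromal markers tested 6 passed, 3 of them highest in ATR 2 (Thy1, Prrx1 and Pdgfra), 2 in ATR 1 and 1, Lum, in ATR 3. Thy1 stood at 23.2, 104 and 82.7 TPM, Prrx1 at 12.0, 47.0 and 29.2 TPM, and Pdgfra at 1.36, 5.27 and 3.67 TPM, all lowest in ATR 1, while the summed TPM of the 7 stromal markers was 613, 645 and 643. Of 8 surface epithelium and mesothelium markers tested 6 passed, with 2 highest in each library: Upk3b and Lrrn4 in ATR 1, Msln and Wt1 in ATR 2, and Krt8 and Krt18 in ATR 3. Their list's summed TPM was 2332, 2177 and 2251, and Msln, with the widest ratio between libraries of the 6, stood at 35.3, 51.6 and 30.3 TPM. Of 7 granulosa markers tested 5 passed, 4 of them highest in ATR 1, among them Fshr at 7.38, 5.25 and 4.77 TPM. Over all genes tested 23.2% passed, 8.26% passed and were highest in ATR 1, and 7.42% passed and were highest in ATR 2. The part of these cells in the levels of Ccl2, Ccl7, Cxcl1 and Relb was not tested.

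The listed interferon-stimulated genes were highest mostly in ATR 1. All 14 tested passed, against 23.2% of all genes tested. Of these, 13 passed and were highest in ATR 1, against the same 8.26% of all tested genes. Without ATR 1 none of the 13 then tested passed, with 5 at an unadjusted p under 0.05. By median they deviated by 0.62 in ATR 1, against -0.27 in ATR 2 and -0.25 for ATR 3. Usp18, Mx1, Mx2, Isg15, Ifit2, Ifit3, Oas1a, Oasl and Rsad2 were 1.83 to 7.89 times higher in ATR 1 than in their lowest library, and the most abundant of the list were Ifi27, Bst2 and Ifitm3. Of 5 interferon regulatory factor genes 3 passed, all highest in ATR 1 too. Irf7 stood at 45.2, 18.4 and 20.8 TPM, Irf9 at 25.7, 14.3 and 14.6 TPM and Irf3 at 82.1, 73.0 and 62.6 TPM. Both lists were drawn up with earlier results of these libraries known, so they are not independent evidence of a direction. Tlr3, an interferon-inducible receptor, was also highest in ATR 1, as were 33.9% of all tested genes, and deviated there by 0.15. Myd88, whose promoter holds the ISRE-like motif printed above, had a deviation of 0.01 in ATR 1 and an adjusted p of 0.231. The part of interferon in the levels of Tlr3 and Myd88 was not tested. The ISRE-like motif was found in 6 of the 9 interferon-stimulated genes with a promoter in the table.

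**Figure D5:**
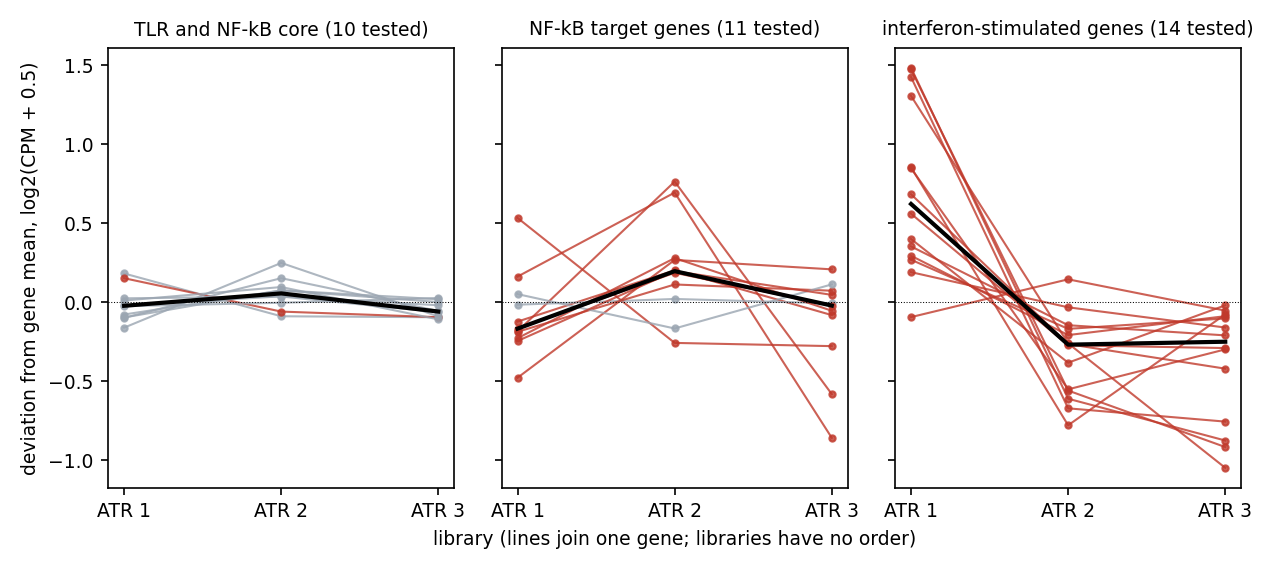
Deviation from the gene mean on the log2(CPM + 0.5) scale in the 3 ATR libraries for the 10 Toll-like receptor and NF-kB genes, 11 NF-kB target genes and 14 interferon-stimulated genes with enough reads; each thin line is 1 gene, red where the test called it, and the black line is the median. The median of the 10 core genes stays within 0.06 of 0, while single genes reach up to 0.25 (Relb in ATR 2). The median of the targets peaks in ATR 2 at 0.20, and that of the interferon-stimulated genes in ATR 1 at 0.62.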

How the data were processed

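Poly(A) RNA of cultured rat granulosa cells was sequenced in pairs of 150 bases, per the labels' protocols. Per the submitters' processing notes, HISAT2 2.2.1, StringTie 2.1.5 and fastp 0.20.1 were used, in roles not given, with the builds Rnor_6.0 and GRCm38. The authors deposited a TPM value and an estimated count of reads per gene and library, per the file headers. No strand setting is given in the sources used here.

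Columns of the ATR libraries were used. Estimated counts were rounded and scaled with TMM (edgeR 4.0.16, R 4.3.3) for CPM. Those of some genes, among them Ube2v1, Lyz2, Mx1 and Mx2, are not whole numbers, so part of their reads can be shared with other genes. Spread was tested by chi-square over genes with at least 30 reads, with Benjamini-Hochberg adjustment at 0.05, and was tested on simulated data. DESeq2 1.42.0 size factors were an alternative. Read ratios carry Clopper-Pearson 95% intervals, which do not allow for the choice of the library. Python 3.11.15, numpy 2.4.6, pandas 2.3.3, scipy 1.17.1 and matplotlib 3.10.9 were used. Promoter letters are RefSeq's. The 10 genes and the lists were chosen with earlier results of these data known. Tlr11, S100a8, S100a9, Cd3e, Emcn and Dpt, entries of these lists, are not analysed here. Besides the 10 genes, the text names in each list the 3 highest in TPM and those that passed the test with a ratio between libraries of at least 1.5.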

Additional observations from a re-analysis of the deposited data

How the results depend on the processing

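No paired analysis was possible because values of 1 group, ATR, are analysed, and what was planned for ATR against Control was not run. The count of the 10 genes at 10 TPM or more was 7 under each alternative, CPM included. The count with spread beyond counting noise was 1 with library totals, DESeq2 size factors and both other read limits, and ranged from 0 to 1 with 1 library left out; it was 0 without ATR 1 (1 at an unadjusted p under 0.05) and without ATR 3 (3 at that p). The count of NF-kB targets called, 9, was 10 with no read limit and ranged from 4 to 9 with 1 library left out. That of interferon-stimulated genes, 14, ranged from 0 to 14, the lowest without ATR 1, and that over all genes, 3087, from 1528 (without ATR 1) to 2230 (without ATR 3), where tests on fewer libraries have less power. In CPM, which is not scaled for length, Tlr3 had rank 3 among the 10 genes in place of 7, Nfkb2 rank 4 in place of 5, Myd88 rank 5 in place of 3, Cd14 rank 6 in place of 4 and Nfkbia rank 7 in place of 6, and the other 5 kept their ranks. Without ATR 2, Tlr2 ranked above Relb and Nfkb2 above Cd14. Other pseudocounts moved no deviation by more than its SD. The number of the 10 genes highest in ATR 2 was 7 in CPM under each scaling and 6 in TPM. With 203 to 309 reads in all, Tlr4, Tlr2 and Relb are the least precise of these genes.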
